A study of Mus musculus with 4 samples.

Results

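The genes described here are 34 genes of glycolysis and of the response to low oxygen: 2 glucose transporters, the enzymes that carry glucose to pyruvate and lactate, lactate transporters and pyruvate dehydrogenase kinases, the oxygen-sensing proteins Hif1a, Epas1, Egln1 and Egln3, and 4 further targets of the hypoxia-inducible factors (Hif). They were chosen by name and function, with earlier results of these data known. Each is represented by the array probe with the highest mean signal. All 34 of 34 were measured and tested, among 13926 named genes and 9622 probes without a gene symbol. Of the 34 genes, 33 lay well above background on all 4 arrays, and Car9 did so on 1 of the 2 Venus-negative and on both Venus-positive arrays.

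The cells were mouse EB5 embryonic stem (ES) cells that carry a Venus fluorescent reporter of the homeobox gene Hoxb6, kept for 6 days on a layer of OP9 bone marrow stromal cells. Cells stained for Flk-1, a receptor of the growth factor VEGF and the product of Kdr, were sorted into a Flk-1+ Venus-positive and a Flk-1+ Venus-negative fraction, so both fractions share the cell line, the reporter, the feeder layer, the day and the Flk-1 selection. Each fraction was measured on 2 Agilent arrays, 4 in all, with total RNA in 1 colour. The labels do not say whether replicates came from separate cultures, so the p-values here speak only of how far these samples differ, and that spread may be technical.

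Glycolysis converts glucose to pyruvate in the cytosol and yields energy without oxygen, and lactate dehydrogenase turns pyruvate into lactate where it is not passed on to mitochondria. Hif is a pair of an oxygen-regulated alpha subunit and the stable subunit Arnt. Prolyl hydroxylases mark the alpha subunit for degradation while oxygen is present, and when oxygen falls Hif binds short DNA motifs and raises many glycolytic genes. Pluripotent cells and cells of the gastrulating embryo are known for high glycolytic activity, which is remodelled as mesoderm differentiates.

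Signals are given as log2 values relative to the 75th percentile of their array, so that 0 is the 75th percentile, and changes are Venus-positive minus Venus-negative. Levels of different probes are not comparable, and only changes are compared between genes. Per array, 50.7% to 53.0% of non-control spots were well above background, 0 were saturated, and the number of arrays limits the precision. All 4 arrays lay on 1 slide with 1 scan. Both Venus-negative arrays lay in column 2 and both Venus-positive arrays in column 3 of the slide, so column and fraction cannot be told apart. Replicate 1 of both fractions lay in row 1 and replicate 2 in row 2. Kdr had a log2 change of 0.44 ± 0.11 (SE, limma adjusted p = 0.138), and Hoxb6 had a log2 change of 1.01 ± 0.16 (adjusted p = 0.0717).

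Most of the 34 genes had lower signals in Venus-positive cells. The median absolute log2 change of the members was 0.51, against 0.23 over all named genes, with median SEs of 0.18 and 0.13. The log2 change was negative for 26 and positive for 8, with a median of -0.36 against 0.01 over all named genes, of which 48.1% had a negative change. The arrays of the fractions did not overlap for 27 members. Of these, 21 were lower in Venus-positive cells, or 61.8% of members, where 29.4% of all named genes were, and 6 were higher, where 32.3% of all named genes were. Only 2 members passed the limma threshold, an adjusted p under 0.05 over all features: Ddit4 fell and Fbp1 rose. Over all named genes 1.85% passed as lower and 0.984% as higher, so 65.2% of calls were lower, against 53.3% with arrays centred on the median and 52.3% with normexp background correction. At an unadjusted p under 0.05, 11 members were lower and 3 higher, against 11.9% and 14.1% of all named genes. The count of lower members at that level was 5 with arrays centred on the median and 17 with normexp. It was 18 with the replicate number as a block and 20 with a signal-dependent variance prior. Counts over all 13926 named genes moved too, to 1285, 1830, 2263 and 2041 in the same order, from 1658 in the main fit.

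**Figure D1:**
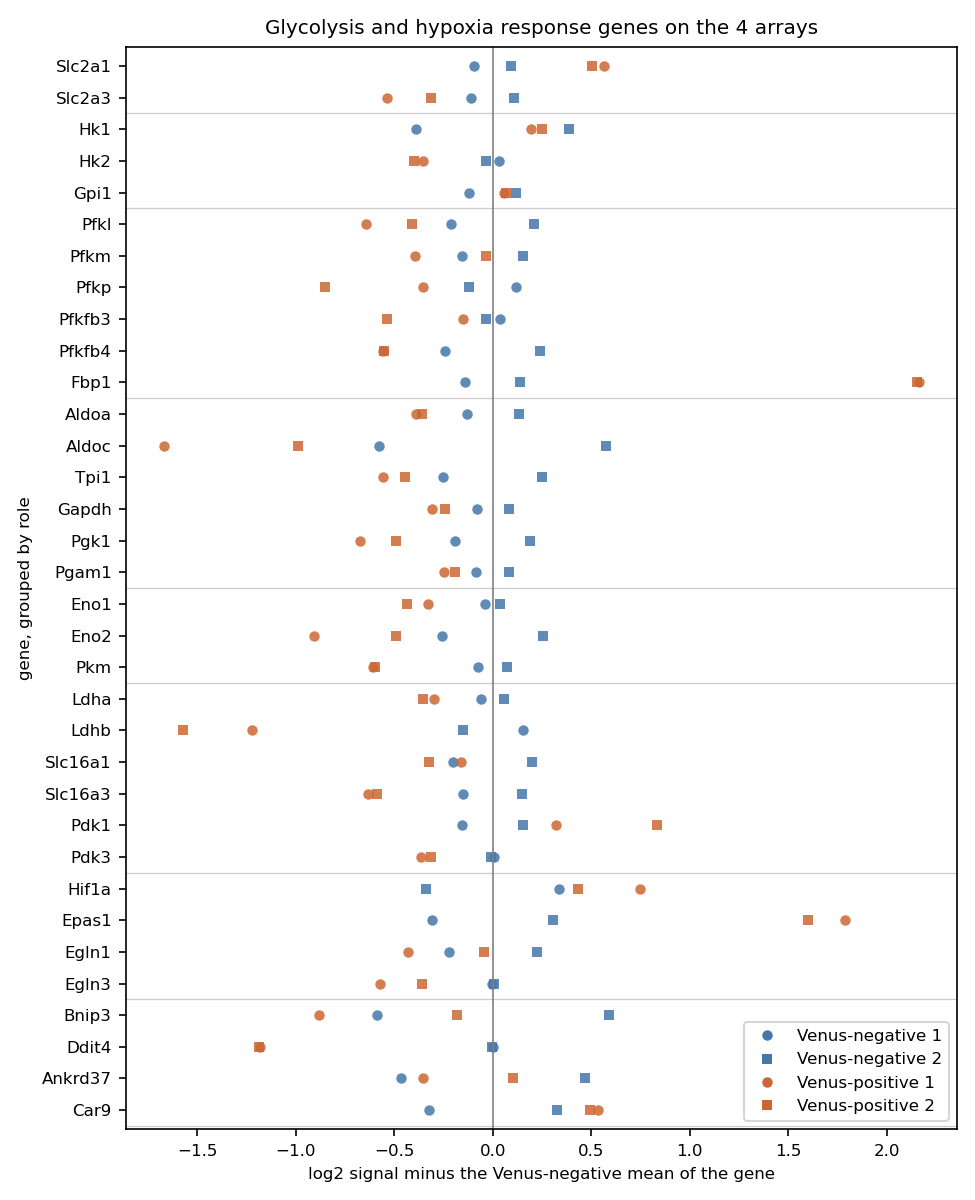
Each row is a gene, grouped by role, and each point is 1 array, as the log2 signal minus the gene's Venus-negative mean; circles are replicate 1 and squares replicate 2. The Venus-positive points lie left of both Venus-negative points for 21 genes and right of both for 6, with Fbp1 and Epas1 furthest to the right.

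Ddit4 encodes Redd1, an inhibitor of the growth kinase mTOR that is induced by low oxygen and by several other stresses. Its log2 signal was 5.83 on each of the Venus-negative arrays and 4.65 on each of the Venus-positive arrays. The replicates of each fraction lay almost on top of each other, and the fractions were well apart. Ddit4 fell 2.27-fold (log2 change -1.18 ± 0.09 SE, limma adjusted p = 0.0355).

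Fbp1 encodes fructose-1,6-bisphosphatase, which runs the phosphofructokinase step backwards in the making of glucose and opposes glycolytic flux. Its log2 signal was 1.53 and 1.81 in the Venus-negative fraction and 3.84 and 3.83 in the Venus-positive one, with no overlap. Fbp1 rose 4.47-fold (log2 change 2.16 ± 0.14 SE, limma adjusted p = 0.0344), the largest change among the 34 genes. With 3 arrays 0 of 13926 genes passed in limma, so leaving out an array cannot test these calls. The log2 changes then stayed at -1.18 for Ddit4 (adjusted p = 0.133 to 0.169) and between 2.02 and 2.30 for Fbp1 (0.127 to 0.161). With dim probes kept in the test the adjusted p was 0.143 for both, and 0 genes passed.

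The proximal promoters of these genes are shown because Ddit4 is a classical Hif target and Fbp1 moved the other way, and those of Ldha and Ldhb because these isozymes of 1 step had unequal changes. The sequences are from RefSeq, build GRCm38.p6, and run from 250 bases before to 50 bases after the transcript start, 5′ to 3′ in the gene's direction. Capitals mark the core letters of the hypoxia response element, ACGTG and GCGTG, on either strand. On the strand opposite to the gene they read CACGT and CACGC, and the E-box CACGTG, which Myc and other factors bind, holds ACGTG on both strands and counts as 2 motifs. The Ddit4 promoter lies at chr10:59951721-59952020 on the minus strand, that of Fbp1 at chr13:62888233-62888532 on the minus strand, that of Ldha at chr7:46845554-46845853 on the plus strand and that of Ldhb at chr6:142507908-142508207 on the minus strand.
Ddit4: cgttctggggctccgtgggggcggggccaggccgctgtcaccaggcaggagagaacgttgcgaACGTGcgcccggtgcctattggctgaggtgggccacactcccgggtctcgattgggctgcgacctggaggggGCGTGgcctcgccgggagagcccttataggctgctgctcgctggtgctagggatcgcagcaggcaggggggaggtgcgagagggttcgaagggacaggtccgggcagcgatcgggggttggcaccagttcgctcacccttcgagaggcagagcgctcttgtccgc
Fbp1: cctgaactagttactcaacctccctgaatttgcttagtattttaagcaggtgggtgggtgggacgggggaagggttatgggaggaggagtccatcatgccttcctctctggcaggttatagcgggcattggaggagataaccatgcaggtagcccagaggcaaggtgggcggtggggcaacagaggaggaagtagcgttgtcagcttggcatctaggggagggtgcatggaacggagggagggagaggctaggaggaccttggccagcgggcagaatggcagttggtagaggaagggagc
Ldha: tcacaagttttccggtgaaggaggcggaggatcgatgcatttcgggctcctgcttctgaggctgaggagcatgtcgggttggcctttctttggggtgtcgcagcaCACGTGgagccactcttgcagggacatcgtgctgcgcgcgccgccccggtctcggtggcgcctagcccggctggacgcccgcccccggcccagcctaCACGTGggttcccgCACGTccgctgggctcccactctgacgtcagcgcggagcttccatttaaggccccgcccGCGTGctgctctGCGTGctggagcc
Ldhb: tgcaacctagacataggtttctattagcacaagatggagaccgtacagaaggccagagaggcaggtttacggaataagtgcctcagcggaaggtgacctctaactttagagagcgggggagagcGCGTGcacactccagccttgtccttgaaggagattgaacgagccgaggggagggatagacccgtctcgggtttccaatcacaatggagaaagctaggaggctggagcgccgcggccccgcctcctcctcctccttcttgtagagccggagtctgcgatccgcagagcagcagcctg

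Ddit4 holds 2 of these motifs, Fbp1 0, Ldha 7 and Ldhb 1. The table of promoters held 32 of the 34 genes; Slc2a3 and Epas1 had no entry there. In the promoter of the most upstream listed start, 25 of the 32 genes (78.1%) held at least 1 motif, against 61.6% of the tested genes with a promoter and 43.8% of all genes in the table. The members' promoters had a median GC content of 64.8% and 21 CpG dinucleotides, against 60.7% and 20 for tested genes, and the part of base composition in the motif share was not tested. Hk1, Aldoa and Pkm held none there but did at another of their listed starts. Among members with a lower signal in Venus-positive cells 21 of 25 most upstream promoters held a motif, and among those with a higher signal 4 of 7 did. The shares among all lower and all higher genes were not computed, so a link between motif and direction was not tested. A match is a description of letters and does not show a binding site.

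Glucose enters cells through facilitative transporters, and the 2 measured here moved in opposite directions. Slc2a1 encodes Glut1, the transporter of most embryonic and endothelial cells. Its log2 signal was 6.58 and 6.77 in the Venus-negative fraction and at 7.24 and 7.18 in the Venus-positive one, so both Venus-positive arrays were higher (log2 change 0.54 ± 0.12 SE, limma adjusted p = 0.114). Slc2a3 encodes Glut3, a transporter with high affinity for glucose. It stood at 5.70 and 5.92 in the Venus-negative fraction and at 5.28 and 5.50 in the Venus-positive one (log2 change -0.42 ± 0.15, adjusted p = 0.208). Both Venus-positive arrays were lower, but neither transporter passed the threshold.

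Hexokinases trap glucose as glucose 6-phosphate. Hk2, the hexokinase that Hif is known to induce, stood at 3.37 and 3.31 in the Venus-negative fraction and at 2.99 and 2.95 in the Venus-positive one, lower on both (log2 change -0.38 ± 0.10, adjusted p = 0.141). Hk1, the widely expressed form, stood at 3.46 and 4.24 in the Venus-negative fraction and at 4.05 and 4.11 in the Venus-positive one, which overlapped. Its log2 change of 0.22 ± 0.30 was smaller than the gap between the Venus-negative replicates, and a second Hk1 probe gave -0.13 ± 0.25. Gpi1, the isomerase that makes fructose 6-phosphate, had a log2 change of 0.06 ± 0.13 with overlapping arrays, and its other probes gave 0.10 and 0.08.

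Phosphofructokinase commits fructose 6-phosphate to glycolysis, and the bifunctional Pfkfb enzymes set the level of its activator fructose 2,6-bisphosphate. All 5 members of this group other than Fbp1 had negative changes. The subunits Pfkl and Pfkp did not overlap between fractions (log2 change -0.52 ± 0.20 and -0.60 ± 0.22), whereas Pfkm did (-0.21 ± 0.20). The change of Pfkl was -0.31 without Venus-negative replicate 2. That of Pfkp was -0.35 without Venus-positive replicate 2. A second Pfkp probe, also lower without overlap, gave a smaller change of -0.22 ± 0.11. Pfkfb4, a form induced by hypoxia, had a log2 change of -0.55 ± 0.20 and Pfkfb3 one of -0.34 ± 0.17, both without overlap. For Pfkfb4 the change was -0.31 without Venus-negative replicate 2, and for Pfkfb3 it was -0.15 without Venus-positive replicate 2. The 5 genes had limma adjusted p-values from 0.217 to 0.567, so Fbp1 was the only member of the step that passed.

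The enzymes from aldolase to pyruvate kinase were lower in Venus-positive cells in every case. For 9 of 9 genes both Venus-positive arrays lay below both Venus-negative arrays, and 0 of 9 passed over all features. Of all named genes, 29.4% were lower without overlap and 1.85% passed as lower. Aldoc, the brain-type aldolase, had the largest value (log2 change -1.33 ± 0.49, adjusted p = 0.229), on replicates that differed by 1.15 (Venus-negative) and 0.68 (Venus-positive). Aldoa, the ubiquitous aldolase, stood at -0.37 ± 0.13, and the triose phosphate isomerase Tpi1 at -0.50 ± 0.21. Without Venus-negative replicate 2 the changes were -0.75 for Aldoc, -0.24 for Aldoa and -0.25 for Tpi1, and those of Pgam1 and Eno2, described next, were -0.14 and -0.44.

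Gapdh, the dehydrogenase often used as a reference gene, had a log2 change of -0.27 ± 0.11 (adjusted p = 0.256). It was negative on all 7 Gapdh probes, from -0.48 to -0.24, and with every scaling tried. Its size depended on the scaling, at -0.15 with quantile normalization and -0.21 with arrays centred on the median. Pgk1, the first step that yields ATP, stood at 7.74 and 8.12 in the Venus-negative fraction and at 7.26 and 7.44 in the Venus-positive one (log2 change -0.58 ± 0.18, adjusted p = 0.178). Pgam1, the mutase that follows it, had the smallest change of the run at -0.22 ± 0.11.

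Eno1, the main enolase, stood at 8.62 and 8.70 in the Venus-negative fraction and at 8.34 and 8.23 in the Venus-positive one (log2 change -0.38 ± 0.10, adjusted p = 0.152). Eno2, the neuronal enolase, had a change of -0.70 ± 0.26 (adjusted p = 0.226). Pkm, pyruvate kinase, stood at 7.13 and 7.28 in the Venus-negative fraction and at 6.60 and 6.61 in the Venus-positive one. Its change of -0.60 ± 0.11 had the lowest adjusted p of the run, 0.0875, which missed the threshold. Gapdh and Ldha, among others, have processed pseudogenes in the mouse genome, and their values are uncertain to the extent that probes bind those copies.

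**Figure D2:**
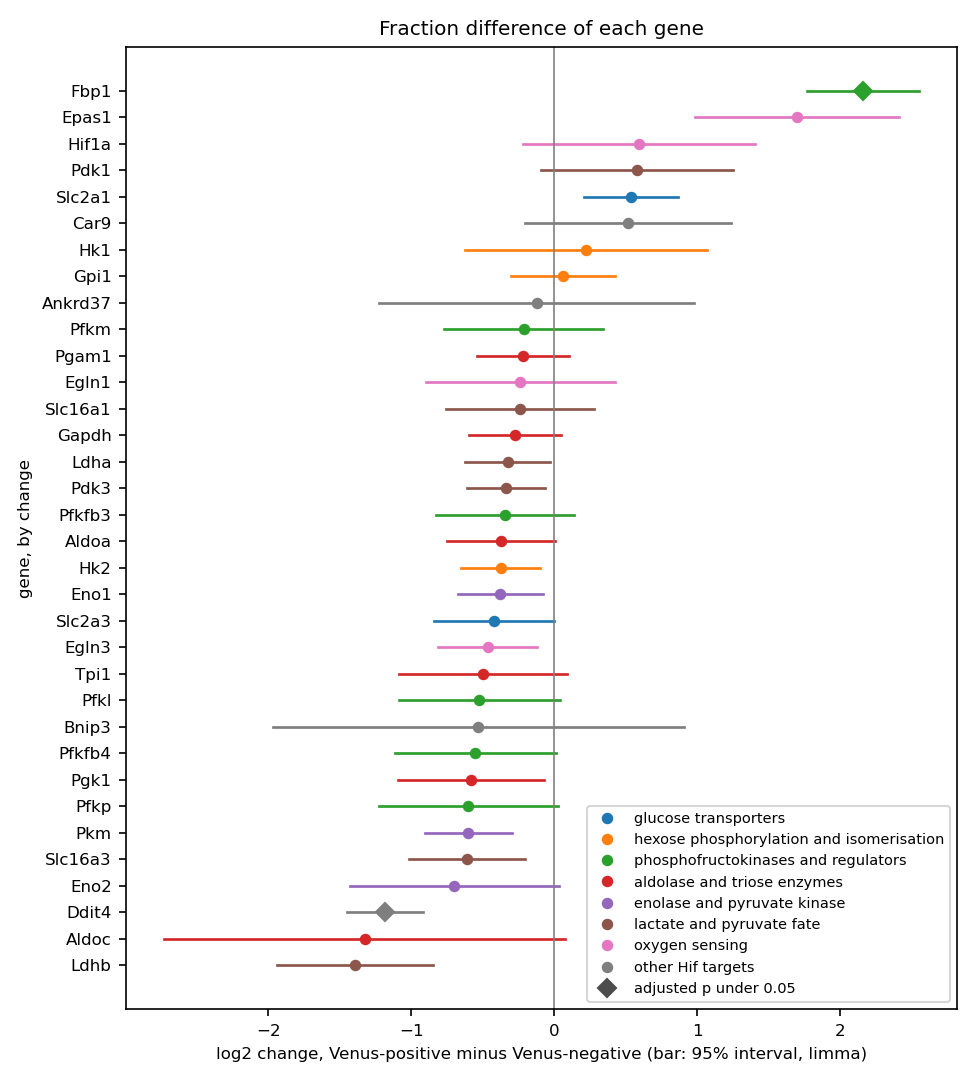
Points are the log2 change of each gene, Venus-positive minus Venus-negative, ordered by size and coloured by role, and bars are the 95% intervals of the limma fit. Ddit4 and Fbp1, drawn as diamonds, passed the threshold; the interval of Epas1 runs from 0.98 to 2.41 and that of Ldhb from -1.94 to -0.85.

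Lactate dehydrogenase interconverts pyruvate and lactate; the A subunit is known to favour lactate production and the B subunit its use. Ldha stood at 9.19 and 9.31 in the Venus-negative fraction and at 8.95 and 8.89 in the Venus-positive one (log2 change -0.33 ± 0.10, adjusted p = 0.186). Ldhb stood at 4.38 and 4.08 in the Venus-negative fraction and at 3.01 and 2.66 in the Venus-positive one, the most negative change among the 34 genes (-1.40 ± 0.19, adjusted p = 0.0638). Both genes were lower on both Venus-positive arrays, Ldhb by more. The other Ldha probes gave larger changes of -0.60 and -0.73 than the brightest one.

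Slc16a3 encodes the lactate exporter Mct4, a Hif target. It stood at 6.17 and 6.47 in the Venus-negative fraction and at 5.69 and 5.73 in the Venus-positive one, lower on both (log2 change -0.61 ± 0.14, adjusted p = 0.124), and a second probe gave -0.65. Slc16a1, the widely expressed Mct1, stood at -3.52 and -3.12 in the Venus-negative fraction and at -3.48 and -3.64 in the Venus-positive one, which overlapped (-0.24 ± 0.18, adjusted p = 0.489).

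Pyruvate dehydrogenase kinases keep pyruvate out of mitochondria by inhibiting pyruvate dehydrogenase. Pdk3 stood at 1.57 and 1.56 in the Venus-negative fraction and at 1.20 and 1.25 in the Venus-positive one (log2 change -0.34 ± 0.10, adjusted p = 0.156). Pdk1, a Hif-induced form, went the other way. It stood at 1.34 and 1.65 in the Venus-negative fraction and at 1.81 and 2.32 in the Venus-positive one (0.58 ± 0.24, adjusted p = 0.256). For neither gene did the fractions overlap, and neither passed. Without Venus-positive replicate 2 the change of Pdk1 was 0.32.

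The oxygen-sensing genes were mixed. Epas1, which encodes the alpha subunit Hif2a and is known for its abundance in endothelium, stood at 2.57 and 3.19 in the Venus-negative fraction and at 4.67 and 4.48 in the Venus-positive one. It was higher on both Venus-positive arrays, 3.24-fold, with a limma adjusted p of 0.0688 (log2 change 1.69 ± 0.25). Its 3 probes disagreed: a second gave 1.43 ± 0.26 without overlap and the remaining one, also well above background on all 4 arrays, gave -0.02 ± 0.11, and the mean of the 3 probes gave 1.04. Which part of the transcript each probe reads was not analysed here.

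Hif1a, the ubiquitous alpha subunit, stood at 1.64 and 0.96 in the Venus-negative fraction and at 2.05 and 1.74 in the Venus-positive one (log2 change 0.59 ± 0.29, adjusted p = 0.310), without overlap but with a wide spread, and the change was 0.26 without Venus-negative replicate 2. Egln3, a prolyl hydroxylase that Hif induces, stood at 3.05 and 3.06 in the Venus-negative fraction and at 2.48 and 2.70 in the Venus-positive one, lower on both (-0.47 ± 0.12, adjusted p = 0.141). Egln1, the main oxygen sensor of this family, stood at -0.93 and -0.48 in the Venus-negative fraction and at -1.14 and -0.75 in the Venus-positive one, which overlapped (-0.24 ± 0.23, adjusted p = 0.593).

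The other Hif targets among the 34 genes had wide errors. Bnip3, a mitophagy receptor, had a log2 change of -0.53 ± 0.51 and Ankrd37, an ankyrin repeat protein, one of -0.12 ± 0.39, with overlapping arrays for both. Their 95% intervals, -1.97 to 0.91 and -1.23 to 0.98, include the change of Ddit4. The other Bnip3 probes gave -0.51 and -0.65. For each the Venus-negative replicates differed by more than the fractions, by 1.18 for Bnip3 and 0.93 for Ankrd37. Car9, the carbonic anhydrase often used as a hypoxia marker, was dim in both fractions, with processed signals of 13.6 and 18.8 in Venus-negative and 26.8 and 24.2 in Venus-positive cells. Only 1 of its 2 Venus-negative arrays measured it well above background, and its log2 change of 0.52 fell to 0.02 with normexp background correction, so its place among the 6 genes higher without overlap rests on signals near background.

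The replicate spread had a direction of its own in these genes. In the Venus-negative fraction 27 of 34 genes had a higher signal in replicate 2 than in replicate 1, with a median difference of 0.27, against 0.00 over all named genes. In the Venus-positive fraction 21 of 34 did, with a median of 0.04 against 0.00. Bnip3 and Aldoc had the largest gaps in both fractions, of 1.18 and 0.70 for Bnip3 and 1.15 and 0.68 for Aldoc, and Ankrd37 differed by 0.93 and 0.46. Ddit4 differed by less than 0.01 in either fraction. Within row 1 of the slide the median change between fractions was -0.27 and within row 2 it was -0.42, and 24 genes were lower and 6 higher in Venus-positive cells in both rows.

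**Figure D3:**
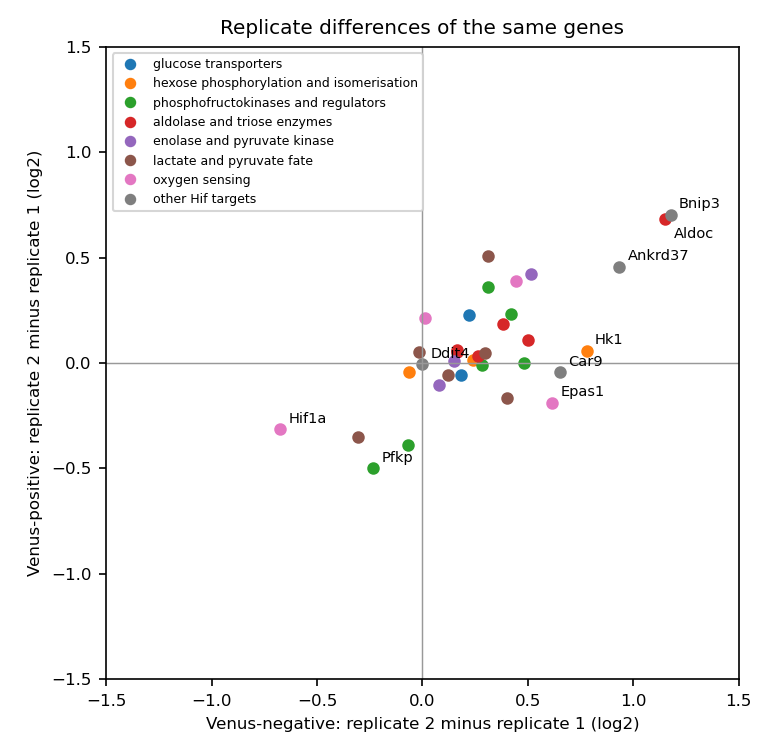
Each point is a gene, with the log2 difference of replicate 2 minus replicate 1 in Venus-negative cells on the x axis and in Venus-positive cells on the y axis, coloured by role. Bnip3, Aldoc and Ankrd37 stand at the upper right, Hif1a at the lower left with -0.67 and -0.31, and Ddit4 at the origin.

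Enzymes with several isoforms allow the balance within a step to be compared, as the log2 difference between paralogs on the same array, which does not depend on the scaling of arrays. Of 12 pairs, 8 did not overlap between fractions, a share near that of single genes, of which 29.4% were lower and 32.3% higher without overlap. The exact two-sided permutation test of 2 against 2 arrays cannot give less than p = 0.333, so none can pass, and these values are a description. The balance of Ldhb against Ldha shifted by -1.07 ± 0.26 (SE over arrays, n = 2 per fraction, exact p = 0.333), that of Slc2a3 against Slc2a1 by -0.96 ± 0.14, and that of Pdk3 against Pdk1 by -0.91 ± 0.28.

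Aldoc against Aldoa shifted by -0.95 ± 0.55 and Hk2 against Hk1 by -0.60 ± 0.42, with wide spread. The Slc16a3 and Slc16a1 balance moved by -0.37 ± 0.12 and the Pfkm and Pfkl balance by 0.31 ± 0.08. Epas1 against Hif1a shifted by 1.1 ± 0.65, or by 0.44 with the mean of all probes of each gene. The pairs Pfkp and Pfkl, Eno2 and Eno1, Pfkfb4 and Pfkfb3, and Egln3 and Egln1 overlapped, with shifts of -0.08 ± 0.49, -0.32 ± 0.34, -0.21 ± 0.34 and -0.23 ± 0.23.

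**Figure D4:**
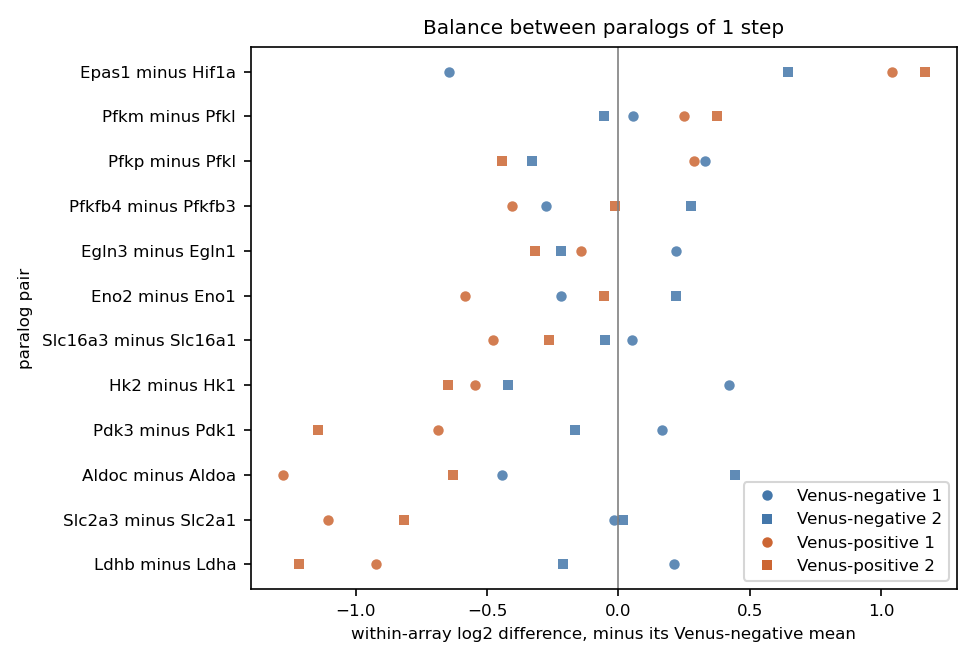
Each row is a pair of paralogs and each point 1 array, as the within-array log2 difference minus its Venus-negative mean. The Venus-positive points lie apart from the Venus-negative points for 8 of 12 pairs, a share near that of single genes (29.4% lower and 32.3% higher). Ldhb minus Ldha shifted by -1.07, and Epas1 minus Hif1a by 1.1 with the brightest probes and by 0.44 with the mean of all probes.

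In 8 lists of 144 further genes, 133 were tested, 9 were below background and 2 had no probe. Of the 133, 79 had a negative and 54 a positive log2 change, with a median of -0.06. In limma 4 of them passed as lower and 0 as higher, where 1.85% and 0.984% of all named genes did. Of 36 tested other Hif targets, 3 fell, 24 had a negative change, and the median was -0.17. P4ha2, a collagen prolyl hydroxylase, stood at 2.33 and 2.32 in the Venus-negative fraction and at 1.28 and 1.35 in the Venus-positive one (log2 change -1.01 ± 0.10, adjusted p = 0.0428).

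Vldlr, a lipoprotein receptor, stood at 3.67 and 3.48 in the Venus-negative fraction and at 2.42 and 2.23 in the Venus-positive one (-1.25 ± 0.14, adjusted p = 0.0482). Ppfia4, a liprin scaffold protein, stood at -0.66 and -0.66 in the Venus-negative fraction and at -1.90 and -2.05 in the Venus-positive one (-1.31 ± 0.11, adjusted p = 0.0367). These 3 genes fell without overlap. Pygl, the liver form of glycogen phosphorylase, was the only 1 of 13 glycogen and gluconeogenesis genes called; it stood at 0.93 and 1.34 in the Venus-negative fraction and at -0.68 and -0.50 in the Venus-positive one and fell by 1.73 ± 0.19 on the log2 scale (adjusted p = 0.0489).

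In the other lists 0 genes passed in limma. At an unadjusted p under 0.05, 11.9% of all named genes were lower and 14.1% higher. At that level 3 of 15 other glycolytic genes were lower and 2 higher. The muscle mutase Pgam2 had a log2 change of -1.23 ± 0.17 and the galactokinase Galk1 one of -0.77 ± 0.15. Pgam2 was dim, at -3.88 and -3.51 in the Venus-negative fraction and at -5.00 and -4.84 in the Venus-positive one. Among 10 other sugar and lactate transport genes, 5 were lower and 1 higher; the urate and sugar transporter Slc2a9 stood at 1.19 ± 0.23 and Slc2a10 at -1.14 ± 0.31. Of 11 pyruvate dehydrogenase genes 1 was higher, the phosphatase Pdp1 (0.74 ± 0.11), which opposes the Pdk enzymes, and of 14 pentose phosphate and serine genes 1 was lower, the serine phosphatase Psph (-0.59 ± 0.18).

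Of 14 genes of Hif subunits and turnover, 2 were lower and 1 higher at that level, against 11.9% and 14.1% of all named genes. Arnt2, a partner of Hif alpha subunits, had a change of -1.43 ± 0.29 and exceeded background clearly on 1 of 2 Venus-positive arrays, and the ubiquitin ligase Siah2 one of -0.40 ± 0.11. Of 20 transcription factors and nutrient sensors, 2 were lower and 0 higher: Prkaa2, a catalytic subunit of the energy sensor AMPK (-1.83 ± 0.24), and the lysosomal factor Tfeb (-1.17 ± 0.18). Their adjusted p-values were 0.0594 and 0.0697.

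**Figure D5:**
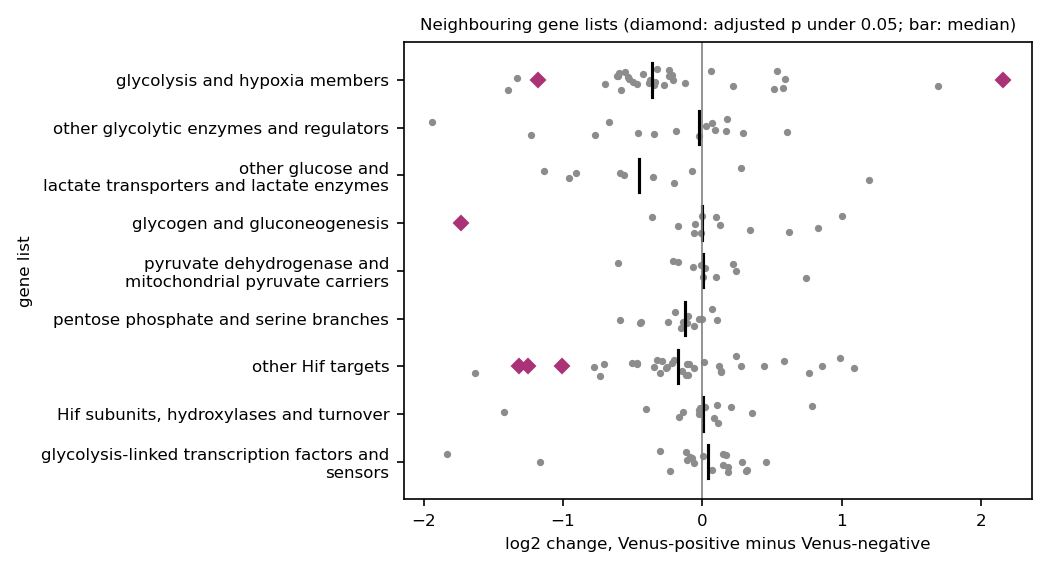
Each row is a gene list, each point a gene's log2 change (Venus-positive minus Venus-negative), spread vertically at random for legibility; bars are medians and diamonds are genes that passed the threshold. The median lies at -0.36 for the 34 genes and at -0.17 for other Hif targets.

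Markers of the primitive streak and of endothelium differed between the fractions, while lists of other cell types gave smaller or mixed changes. The summed signal of 10 primitive streak markers, in multiples of the array's 75th percentile, was 67.9 to 85.4 on the Venus-negative and 19.4 to 33.3 on the Venus-positive arrays, and 10 of 10 had a negative change. That of 10 endothelial markers was 59.0 to 83.4 and 189.9 to 226.9, with 10 of 10 positive. Such sums weigh bright probes most and are compared only between arrays. The median log2 change was -4.40 for the streak and 1.43 for the endothelial markers. Some streak markers were dim on the Venus-positive arrays, such as Lhx1 at -4.48 and -4.64 and Mesp1 at -5.53 and -4.80. Mesp1 was well above background on only 1 of those 2 arrays. The size of such changes is uncertain, and both genes are named after their values were seen. Of 9 tested G2/M genes 9 had a positive change, with sums of 88.5 to 122.8 and 163.1 to 165.1. Sums of 11 tested OP9 stromal and adipocyte markers were 33.1 to 36.5 and 18.1 to 27.4 (Dcn below background). Those of 10 ES cell markers were 17.8 to 22.6 and 15.8 to 22.1, and those of 8 tested blood markers 51.0 to 107.5 and 50.8 to 57.1. Negative changes were found for 8 of 11 OP9, 8 of 10 ES cell and 5 of 8 blood markers, with medians of -0.34, -0.40 and -0.07. In limma 7 of 10 streak markers and 1 of 10 ES cell markers passed as lower, where 1.85% of all named genes did. Of the endothelial markers 3 of 10 passed as higher, against 0.984% of all named genes, and 0 of the OP9 and blood markers passed. Tdgf1 was the ES cell marker that passed (log2 change -4.89 ± 0.14), named after its value was seen. The 6 tested endoderm markers split, with sums of 24.5 to 27.0 and 37.0 to 41.0 but a median log2 change of -0.11: Foxa1, Foxa2 and Epcam had negative changes at an unadjusted p under 0.05, while Sox7, which is also in the endothelial list, Hhex and Trf had positive changes, of which only that of Sox7 was at such a p; these genes are named after their values were seen. The endoderm markers Afp, Ttr, Apoa1 and Cer1 were below background. The part of these cell types in the changes of the 34 genes was not tested, and in such bulk RNA fewer cells of a type and less RNA per cell cannot be told apart.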

How the data were processed

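The 34 members and all gene lists were chosen with earlier results of these data known. Each deposited scanner file holds spot intensity, per the file headers written by Feature Extraction 10.10.1.1, which also record spatial and multiplicative detrending within the array. Control spots (3671 of 62976) and outlier spots (152 to 196 per array) were left out, log2 processed signals were centred on each array's 75th percentile (at 347.2 to 429.2) and repeated spots were averaged per probe. A probe was kept if it exceeded background clearly on both arrays of either fraction (27899 of 55681). Accessions without version were matched to symbols through RefSeq (GRCm38.p6): 27235 probes had 1 symbol and 28446 none. Each gene took its brightest probe by mean log2 processed signal. Fractions were compared over all 23548 features with limma 3.58.1 in R 4.3.3, with Benjamini-Hochberg adjustment and a threshold of 0.05; SE is moderated, on 2 residual and 1.8 prior degrees of freedom. The fit was tested on simulated data. The authors also deposited processed values, which are intensity on a linear scale, equal to the processed signal times 1 constant per array (1.98 to 2.44; column medians 38.1 to 42.3); the basis of these constants is not given in the sources used here. Normexp, an alternative, used spot medians, since the scanner files used here hold no spot means. Members whose arrays did not overlap at an unadjusted p under 0.05, and their paralogs, are given per array, as are pathway genes past the threshold; otherwise up to 2 genes per list with the largest change at an unadjusted p under 0.05 are named.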

Additional observations from a re-analysis of the deposited data

How the results depend on the processing

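The members' median stayed between -0.45 and -0.26 when 1 array was left out and between -0.38 and -0.29 under the other settings, and 24 to 28 members had a negative change (26 of 33 where 4 arrays above background were required). Without 1 array, 0 members and 0 genes were called in limma; at an unadjusted p under 0.05, 4 to 11 members were then lower and 2 to 5 higher, and 1111 to 1331 genes lower and 1105 to 1514 higher. With dim probes kept, 0 members and 0 genes were called either way (9 members lower and 3 higher, 1783 genes lower and 1736 higher, at an unadjusted p under 0.05). With normexp, 3 members were called lower and 2 higher, of 538 and 491 genes; with a signal-dependent variance prior, 5 and 3 of 650 and 597. Centring on the median called 2 members and 259 genes higher (53.3% of calls lower, against 65.2%). Requiring 4 arrays above background left 55.8% lower. With the replicate number as a replicate block, 2 members were called lower and 1 higher, of 421 and 290 genes, the added one being Ldhb (adjusted p = 0.0429). The deviations of same-numbered arrays correlated at 0.414 over all features and at 0.717 over the 34 genes (across genes, which are not independent), but the labels give only a number, so the samples were not treated as paired. Signs reversed without Venus-negative replicate 1 for Hk1 (-0.17; -0.17 to 0.61 without any 1 array) and Gpi1 (-0.058 to 0.18), without Venus-negative replicate 2 for Bnip3 (-1.12 to 0.059) and Ankrd37 (0.34; -0.59 to 0.34), and without Venus-positive replicate 1 for Ankrd37 (0.10); the cause was not tested. Ldhb passed under 3 settings, Epas1 under 3, Pkm under 2 and Slc2a1, Eno1 and Slc16a3 under 1. Signal over background limits Car9 and Slc16a1, the dimmest members.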

Other observations

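Reference genes other than Gapdh did not share a direction. Of 10 such genes, 7 had a negative and 3 a positive log2 change, with a median of -0.07 and 0 called in limma (0 lower and 1 higher at an unadjusted p under 0.05); Hprt, an enzyme of purine salvage named after its value was seen, stood at 0.68 ± 0.16. Of 9 tested G1/S genes, 7 had a negative change, with a median of -0.21, while the median of 9 tested G2/M genes was 0.72.

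Stress genes were also measured, since Ddit4 is known to respond to several stresses. The median log2 change was 0.01 for 11 tested dissociation stress genes and -0.18 for 10 genes of unfolded protein and amino acid stress. Changes were negative for 4 of 11 and 8 of 10, and 0 genes were called in either list in limma. At an unadjusted p under 0.05, 1 and 2 were lower and 1 and 1 higher, against 11.9% and 14.1% of all named genes. In the second list these were Trib3 (-0.92 ± 0.23), Chac1 (-0.82 ± 0.20) and Xbp1 (0.39 ± 0.12), named after their values were seen. A link of these genes to the change of Ddit4 was not tested.

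The choice of probe changed the size of several values. Of 11 members with more than 1 probe above background, 9 had the same sign on every probe, the exceptions being Hk1 and Epas1. The brightest probe gave the smallest change for 6 of the 11, among them Ldha (-0.33, against -0.73 on another probe) and Tpi1 (-0.50, against -0.75).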
